A study of Homo sapiens with 6 samples.

Results

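Genes of the primary cilium and of intraflagellar transport were examined in cells labelled HCT116, a human colorectal carcinoma cell line. The 51 genes were taken by name and all 51 were measured, among 18132 genes that the arrays tested. Total RNA was hybridised to Affymetrix arrays, 3 from cells labelled Ctrl, whose treatment is given as control, and 3 from cells labelled CSF3, whose treatment is given as CSF3. All were grown in RPMI-1640 with fetal bovine serum. CSF3 is the gene of granulocyte colony-stimulating factor, and the labels do not say whether the cytokine was added, expressed from a vector or altered otherwise. Nor do they say whether the 3 samples of a group were separate cultures, so a p-value here reflects sample-to-sample spread that could be purely technical.

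The primary cilium is a single antenna of microtubules that grows from the mother centriole when a cell leaves the cycle. Trains of the IFT-B complex, pulled by kinesin-2, carry cargo to the tip, and trains of IFT-A, pulled by dynein-2, bring it back. The BBSome rides on these trains and moves receptors out of the ciliary membrane, while the transition zone at the base gates what enters. Loss of these genes causes ciliopathies such as Bardet-Biedl, Joubert and Meckel syndromes.

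The choice of genes was made with this same comparison in view, since the large drops of CFAP263 and WDR35 were already known. Their changes between the groups are therefore given as a description. A gene is called here when its limma p-value, adjusted by Benjamini and Hochberg's method over all genes, is under 0.05. Each value is the log2 signal of the gene's brightest probe set, and changes are CSF3 minus Ctrl ± standard error. Signals of different probe sets do not compare the amounts of different RNAs.

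CSF3 itself read 5.13, 4.85 and 4.52 on the Ctrl arrays and 5.97, 5.91 and 5.99 on the CSF3 arrays, higher on every CSF3 array. These values come from a probe set named _x_at, 1 of 3 for the gene, with a change of 1.12. The next brightest probe set gave 1.77, so the size depends on the probe set. The arrays also differed outside the genes of interest. Control probe sets at the 3' end of GAPDH exceeded those at its 5' end, a measure of RNA integrity, by 0.301 to 0.313 on the Ctrl arrays and 0.679 to 0.684 on the CSF3 arrays, and those of ACTB by 1.32 to 1.38 and 1.92 to 1.96. The median of 18 hybridisation controls, transcripts added at the hybridisation step, was 6.74 to 6.87 on the Ctrl arrays and 8.30 to 8.39 on the CSF3 arrays. These 3 measures split the same arrays as every change below, and their part in those changes was not tested. Of the epithelial markers, KRT18 (7.26 ± 0.01 and 7.48 ± 0.06, SD, n = 3) and KRT8 (6.37 and 5.06) lay above the median gene level of 4.46 in both groups, while CDX2 (4.45 and 4.79) crossed it, and CDX1 (3.55 and 3.89), EPCAM (3.63 and 3.30), KRT19 (2.61 and 3.07), CDH1 (2.20 and 2.24) and VIL1 (1.43 and 1.70) lay below it in both groups. Epithelial markers were thus mixed, with KRT18 and KRT8 above the median gene and CDX1, EPCAM, KRT19, CDH1 and VIL1 below it. As signals of different probe sets do not compare amounts, these levels cannot settle whether the cells are of the labelled line. Whether the cells or the probe sets account for the low signals was not tested. Of the 8 epithelial markers 4 rose (KRT18, KRT19, CDX1 and CDX2) and 2 fell, KRT8 by 1.32 ± 0.09 (limma adjusted p = 2.98e-05) and EPCAM by 0.33 ± 0.07. Mean levels of 6 fibroblast markers ran from 2.11 to 2.13 and from 2.65 to 2.69, of 5 leukocyte markers from 2.52 to 2.69 and from 2.86 to 2.99, and of 4 endothelial markers from 3.22 to 3.30 and from 3.82 to 3.84. In these lists 5, 4 and 4 markers rose and 0 fell, where 45.4% of all genes, and 63.5% of the dimmest 4533, were called higher, and no detection calls were at hand to tell a dim marker from one that is off. Their part in the results was not tested.

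Most genes of the cilium read lower on the CSF3 arrays. Of the 51, 38 were called lower (74.5%), 5 higher (9.80%) and 8 neither, where 27.1% of all genes were called lower and 45.4% higher, 72.5% in either direction. The 3 CSF3 values lay wholly below the 3 Ctrl values for 39 of the genes and wholly above them for 6, against 29.1% and 47.2% of all genes. A drop of at least 2-fold was called for 10 genes, against 3.37% of all, and a rise of that size for 0, against 0.645%. The median change of the 51 genes was -0.56 and that of all genes was 0.16. Because the genes were chosen in view of this contrast, nothing is read from these shares.

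**Figure D1:**
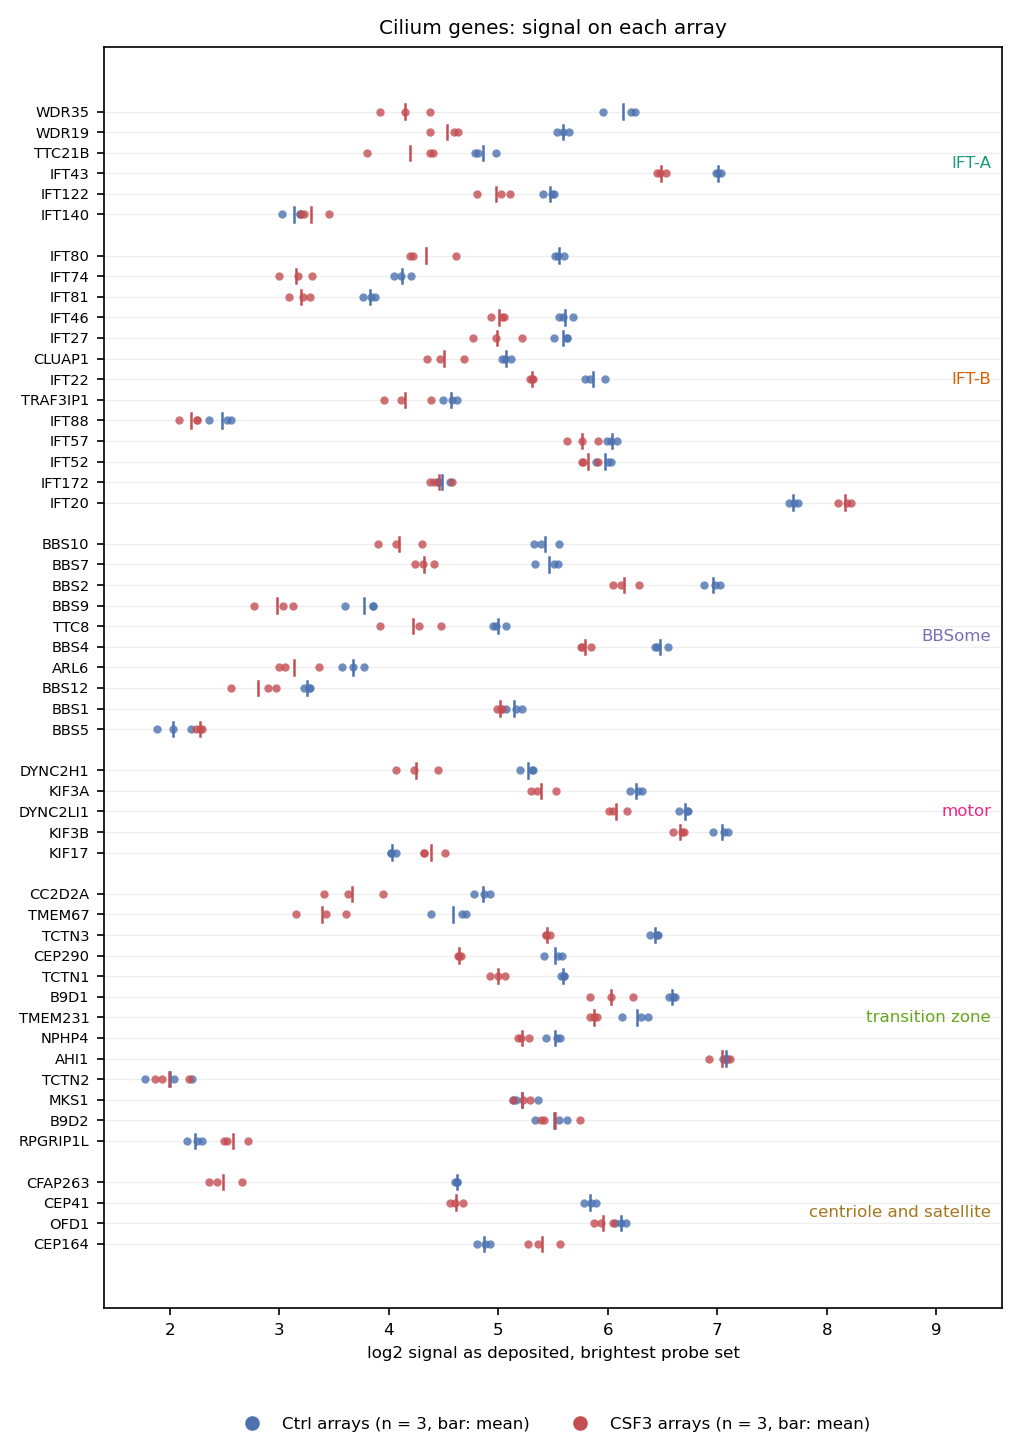
Log2 signal of the brightest probe set (horizontal axis) of each of the 51 genes on the 3 Ctrl arrays (blue) and the 3 CSF3 arrays (red), grouped by class, with a bar at each group mean. In 39 genes all red points lie to the left of all blue ones, in 6, among them IFT20, KIF17 and CEP164, they lie to the right, and in 6 the groups overlap.

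Signal level goes along with the direction of change on these arrays. With all genes cut into 4 equal bins of level, the dimmest bin had a median change of 0.29, the next 0.35, the third -0.09 and the brightest -0.15. The cilium genes in these bins numbered 4, 11, 29 and 7, and their medians were 0.11, -0.63, -0.60 and -0.53. In the second bin, 9 of the 11 cilium genes were called lower, beside 13% of all genes of that level. In the third, 23 of 29 were, beside 43.3%, and in the brightest 5 of 7, beside 50.2%. How far the shift with level enters the changes was not tested. After quantile normalization, which forces the arrays to one distribution, 32 of the 38 were still called lower, 3 of the 5 higher ones were still called higher, and the median of the 51 genes was -0.38. Under that scaling 20.1% of all genes were called lower and 39.2% higher.

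The choice of genes did not use their promoters. RFX transcription factors, which drive ciliary genes, bind the X-box, an inverted repeat whose arm is commonly GTTGCC, or GGCAAC read on the other strand. RefSeq promoters on GRCh38.p14, from 250 bases before to 50 after a start, were matched by symbol for 46 of the 51 genes; BBS9, IFT22, TCTN2, TMEM67 and WDR35 were not analysed here. GTTGCC on either strand was present for 24 of the 46 genes, or 52.2%. The share was 16.5% for the 14425 matched genes on the array and 14.6% for all 27305 genes of the table. Among the other genes of the pathway, described further below, it was 47 of 121, or 38.8%, so the arm is not particular to the 51 genes. By promoter, 27 of 55 (49.1%) held it, beside 28.7% of 167 for those other genes and 12.2% of all 35116. Of the 34 arms found, counted once where promoters of a gene overlap, 23 began between 60 bases before and 50 after a start. The positions of arms in all promoters were not counted, so no clustering is read from this. By class, the arm was present for 1 of 5 IFT-A genes, 6 of 12 IFT-B genes, 5 of 9 BBSome genes, 3 of 5 motor genes, 5 of 11 transition zone genes and 4 of 4 centriole and satellite genes. Facing arms, GTTGCC then GGCAAC with 0 to 3 bases between, were found for 3 of the genes (6.52%). The share was 0.826% for the other genes of the pathway and 0.201% for all. Only these exact letters were searched, so a pair with a changed letter was not counted. The windows below run from 220 bases before to 30 after the start, 5' to 3' on the gene's strand, with each arm in capitals. They show CFAP263, the gene with the deepest drop, which has 1 arm next to its start (chr16:58249716-58249965, plus strand), the facing pairs of CEP41 (chr7:130440987-130441236, minus strand), TCTN3 (chr10:95693898-95694147, minus strand) and TCTN1 (chr12:110613909-110614158, plus strand), and KIF17, which read higher (chr1:20717978-20718227, minus strand).
CFAP263: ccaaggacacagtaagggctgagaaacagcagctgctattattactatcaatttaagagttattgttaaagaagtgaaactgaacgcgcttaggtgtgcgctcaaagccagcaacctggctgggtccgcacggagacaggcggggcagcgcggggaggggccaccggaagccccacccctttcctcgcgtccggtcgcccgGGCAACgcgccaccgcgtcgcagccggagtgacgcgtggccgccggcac
CEP41: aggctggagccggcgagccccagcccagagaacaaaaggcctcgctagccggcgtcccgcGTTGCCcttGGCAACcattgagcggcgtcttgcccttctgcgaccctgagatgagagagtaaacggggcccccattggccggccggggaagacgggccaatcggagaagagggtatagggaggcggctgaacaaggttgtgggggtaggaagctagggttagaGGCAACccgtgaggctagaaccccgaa
TCTN3: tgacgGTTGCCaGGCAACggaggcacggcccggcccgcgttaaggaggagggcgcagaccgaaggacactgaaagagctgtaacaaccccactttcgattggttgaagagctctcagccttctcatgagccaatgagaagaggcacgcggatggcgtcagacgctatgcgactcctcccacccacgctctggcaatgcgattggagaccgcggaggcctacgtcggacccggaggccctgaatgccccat
TCTN1: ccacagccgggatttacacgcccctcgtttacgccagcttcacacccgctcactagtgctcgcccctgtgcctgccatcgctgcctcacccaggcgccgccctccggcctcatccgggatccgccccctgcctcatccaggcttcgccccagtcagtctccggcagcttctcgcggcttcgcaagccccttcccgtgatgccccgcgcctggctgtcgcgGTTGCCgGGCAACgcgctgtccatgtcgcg
KIF17: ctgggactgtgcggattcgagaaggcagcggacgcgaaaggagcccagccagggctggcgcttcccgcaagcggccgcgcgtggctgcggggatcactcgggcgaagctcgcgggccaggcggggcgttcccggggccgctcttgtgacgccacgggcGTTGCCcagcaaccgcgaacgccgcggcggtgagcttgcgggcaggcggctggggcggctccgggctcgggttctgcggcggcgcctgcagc
In CEP41 the pair has 3 bases between its arms and begins at position -160 from the start, and a further arm follows the start. In TCTN3 the pair has 1 base between its arms and begins at position -215. In TCTN1 it also has 1 base between and begins on the first base of the transcript. In KIF17 the arm is followed after 1 base by agcaac, and in CFAP263 gtcgcc stands 2 bases before the arm. Each differs in 1 letter from a facing arm and was not counted. Of the genes called lower or higher, the arm was present in both kinds: 18 of 24 genes with it and 16 of 22 without it were called lower, with medians of -0.58 and -0.49, and 3 and 2 were called higher. A match in these letters does not show that a factor binds there, and the lack of one says nothing of the factor.

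IFT-A, the complex that returns cargo from the tip and admits membrane proteins to the cilium, had 5 of its 6 genes called lower and 0 higher, with a median change of -0.60. WDR35 encodes IFT121, a subunit of the complex. It read 6.25, 6.22 and 5.95 on the Ctrl arrays and 3.92, 4.38 and 4.15 on the CSF3 arrays, so the groups lay far apart and the CSF3 values were 3.97-fold lower (-1.99 ± 0.13). The size belongs to this probe set, whose name (_s_at) marks it as one that can bind more than 1 transcript: the other probe set of WDR35 read 0.33 ± 0.11 higher on the CSF3 arrays. WDR19, which encodes the core subunit IFT144, read 5.64, 5.59 and 5.53 and then 4.63, 4.60 and 4.38, a 2.08-fold drop with no overlap (-1.05 ± 0.08). Its dim second probe set went the other way (0.29).

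The other 4 IFT-A genes moved less than WDR35 and WDR19. TTC21B (IFT139) read 4.81, 4.79 and 4.98 on the Ctrl arrays and 4.40, 4.38 and 3.80 on the CSF3 arrays. The third CSF3 array was far below the other two, and the standard error was the widest of the 51 genes (-0.66 ± 0.16). IFT43, a small subunit that binds IFT121, had only 1 probe set and tight groups, from 6.99 to 7.04 against 6.45 to 6.53 (-0.53 ± 0.05). IFT122, another core subunit, averaged 5.47 ± 0.05 in Ctrl and 4.98 ± 0.16 in CSF3 samples (SD, n = 3), a change of -0.49 ± 0.08. IFT140, the remaining core subunit, was not called: it read 3.19, 3.19 and 3.02 and then 3.22, 3.46 and 3.20. Its 3 probe sets disagreed, with 0.16 on the brightest and -0.39 and -0.40 on the dimmer ones.

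IFT-B, which builds the outbound trains, had 10 of 13 genes called lower and 1 higher, with a median of -0.56. IFT80 was furthest down. Its signals were 5.54, 5.52 and 5.60 on the Ctrl arrays and 4.62, 4.19 and 4.22 on the CSF3 arrays, a 2.32-fold drop (-1.21 ± 0.11), and its second probe set gave -0.93. IFT74 and IFT81 form the module that binds tubulin, the building block of the axoneme. IFT74 read 4.04, 4.12 and 4.20, then 2.99, 3.17 and 3.30 (-0.96 ± 0.09), and IFT81 read 3.87, 3.84 and 3.77, then 3.28, 3.09 and 3.22 (-0.63 ± 0.07). Neither pair of groups overlapped, yet both genes had dimmer probe sets that read higher on the CSF3 arrays, by 0.45 for IFT74 and by 0.33 and 0.19 for IFT81.

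On their brightest probe sets, 4 further IFT-B subunits changed by nearly the same amount, close to that of IFT81. IFT46, a core subunit, changed by -0.60 ± 0.06. IFT27, a small GTPase that hands BBSome cargo out of the cilium, changed by -0.60 ± 0.11. CLUAP1 (IFT38), which sits at the edge of the complex, changed by -0.57 ± 0.09, and IFT22, another small GTPase, by -0.56 ± 0.06. The CSF3 arrays lay below all Ctrl arrays in each of these 4 genes. The second probe set of CLUAP1 gave 0.097. IFT22 had 6 probe sets, however, and 1 of them read 1.12 higher on the CSF3 arrays, so that their mean changed by -0.02 and the call was lost. TRAF3IP1 (IFT54), a partner of CLUAP1, changed by -0.41 ± 0.11, with CSF3 arrays as far apart as 3.96 and 4.39, and by -0.30 without a call after quantile normalization.

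On their brightest probe sets, the other IFT-B genes fell by less or read higher. IFT88, a core subunit whose loss abolishes cilia, was dim on every array, from 2.36 to 2.56 in Ctrl and from 2.08 to 2.25 in CSF3 samples (-0.29 ± 0.08). IFT57, a peripheral subunit, changed by -0.27 ± 0.08, and after quantile normalization by -0.01, where it was not called, nor was it called without Ctrl replicate 3. IFT52 of the core was not called on its brightest probe set (-0.16 ± 0.07; levels over 6 arrays 5.90 and 5.89 for its 2 probe sets), although its second gave -0.60. IFT172, the large peripheral subunit at the tip turnaround, had overlapping groups (-0.03 ± 0.07). IFT20 stood apart as the only IFT-B gene called higher. This subunit also resides at the Golgi, where it sorts ciliary membrane proteins. It read 7.74, 7.70 and 7.65 on the Ctrl arrays and 8.22, 8.11 and 8.18 on the CSF3 arrays, 1.39-fold higher (0.47 ± 0.06), and its other 3 probe sets also read higher, by 0.65, 0.44 and 0.28.

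**Figure D2:**
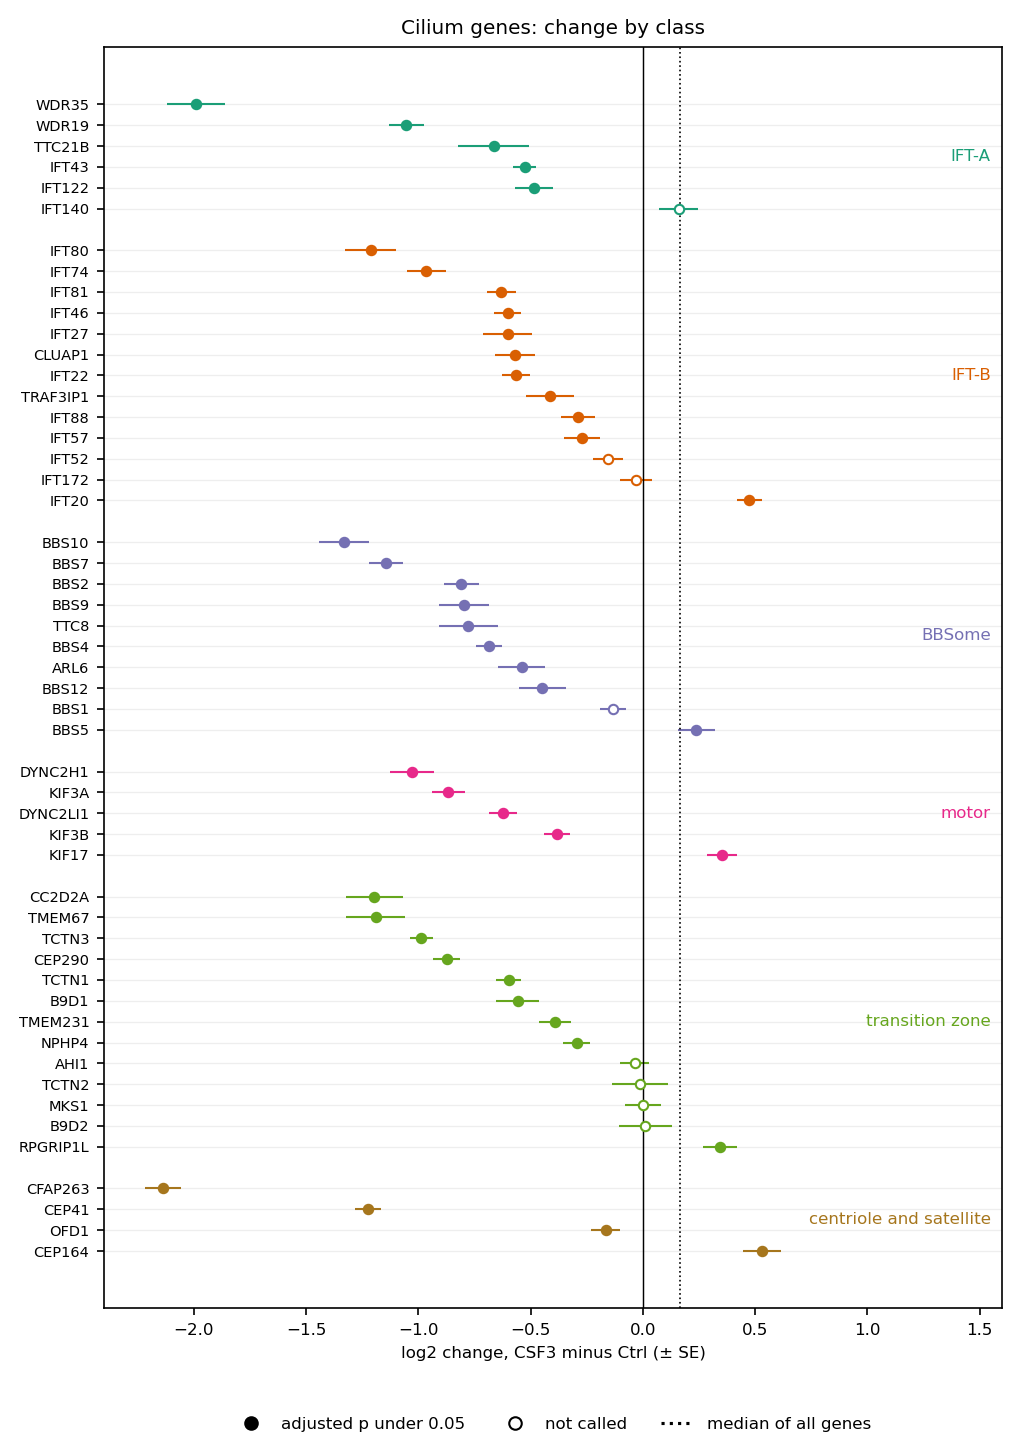
Log2 change, CSF3 minus Ctrl, with its standard error (horizontal axis) for the 51 genes by class. Filled points are called at an adjusted p under 0.05, open ones are not, and the dotted line marks the median of all genes, 0.16. CFAP263 (-2.14) and WDR35 (-1.99) lie furthest to the left, and 5 filled points lie to the right of 0.

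The BBSome and its helpers had 8 of 10 genes called lower and 1 higher, and the median of -0.73 was the lowest of the 6 classes. BBS10, a chaperonin-like protein needed to assemble the BBSome, read 5.56, 5.39 and 5.33 on the Ctrl arrays and 4.31, 3.90 and 4.07 on the CSF3 arrays. That is 2.52-fold lower (-1.33 ± 0.11), and its second probe set gave -0.90. BBS12, its chaperonin partner, changed by a smaller amount (-0.45 ± 0.10), with CSF3 arrays at 2.89, 2.56 and 2.97 and Ctrl arrays at 3.28, 3.23 and 3.27.

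Among the subunits proper, BBS7 read 5.54, 5.51 and 5.34 and then 4.31, 4.24 and 4.41, a 2.21-fold difference (-1.14 ± 0.08). Its 2 dim probe sets changed by -0.11 and -0.05 only. BBS2, which pairs with BBS7 and BBS9 in the core, read 7.02, 6.97 and 6.88 against 6.29, 6.12 and 6.05 on its single probe set (-0.81 ± 0.08). BBS9 changed by -0.80 ± 0.11, and its 3 probe sets all lay below 0. TTC8 (BBS8) changed by -0.78 ± 0.13, with CSF3 arrays from 3.92 to 4.48 and Ctrl arrays from 4.95 to 5.07, and its other probe sets gave -0.92 and -0.43. BBS4, which ties the BBSome to centriolar satellites, was tight in both groups, 6.55, 6.43 and 6.45 against 5.76, 5.85 and 5.77 (-0.69 ± 0.06), with -0.73 on its second probe set. BBS2, BBS4, BBS9 and TTC8 thus showed no probe set in the other direction.

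ARL6 (BBS3), the small GTPase that recruits the BBSome to membranes, read 3.58, 3.77 and 3.67 in Ctrl and 3.36, 3.05 and 2.99 in CSF3 samples (-0.54 ± 0.10). Its 3 dimmer probe sets changed by 0.16, -0.03 and 0.15, and their mean with the first was not called. BBS1, the subunit that binds ARL6, was not called on its brightest probe set (-0.13 ± 0.06), and of its 8 probe sets 6 lay above 0, the second brightest at 0.53. BBS5, a subunit that binds phosphoinositides, was called higher (0.24 ± 0.08), on signals from 1.88 to 2.19 and from 2.24 to 2.30. The call of BBS5 was lost without Ctrl replicate 1 or 3 or any of the CSF3 replicates, with array weights, and after quantile normalization, where the change was 0.02.

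The motors had 4 of 5 genes called lower and 1 higher, with a median of -0.62. DYNC2H1, the heavy chain of the dynein-2 motor of return transport, read 5.20, 5.31 and 5.32 on the Ctrl arrays and 4.23, 4.45 and 4.07 on the CSF3 arrays. The drop was 2.04-fold on its only probe set (-1.03 ± 0.10). DYNC2LI1, a light intermediate chain of the same motor, read 6.74, 6.72 and 6.65 and then 6.18, 6.04 and 6.01 (-0.62 ± 0.06), while its dim second probe set gave 0.28. KIF3A and KIF3B form the kinesin-2 motor of outbound transport. KIF3A read 6.31, 6.27 and 6.20, then 5.53, 5.30 and 5.35 (-0.87 ± 0.07), and KIF3B read 7.07, 7.09 and 6.96, then 6.69, 6.68 and 6.60 (-0.38 ± 0.06). Both were lower on all CSF3 arrays. The KIF3A value comes from a probe set named _s_at, and the 2 specific ones changed by -0.10 and -0.21. The KIF3B change was -0.15 after quantile normalization and not called.

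KIF17, a homodimeric kinesin-2 that is dispensable for building most cilia, went against the other motors. It read 4.02, 4.06 and 4.02 on the Ctrl arrays and 4.32, 4.32 and 4.51 on the CSF3 arrays (0.35 ± 0.07). The groups did not overlap, and the gene has only 1 probe set. Its promoter, shown above, holds 1 exact arm, facing a near match that was not counted. The motor genes with the exact arm, KIF17, DYNC2H1 and DYNC2LI1, went both ways.

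The transition zone was the most divided class. Of its 13 genes, 8 were called lower, 1 higher and 4 neither, and the median was -0.39. CC2D2A, a membrane-associated component mutated in Meckel and Joubert syndromes, read 4.92, 4.87 and 4.78 on the Ctrl arrays and 3.94, 3.63 and 3.41 on the CSF3 arrays (-1.20 ± 0.13). TMEM67 (meckelin), a receptor-like membrane protein of the same module, read 4.70, 4.67 and 4.38, then 3.61, 3.42 and 3.15 (-1.19 ± 0.13). The 2 genes dropped 2.29-fold and 2.28-fold, and 6 of the 7 probe sets of TMEM67 lay below 0. TMEM231, which anchors this module in the membrane, changed by -0.39 ± 0.07, and by -0.13 without a call after quantile normalization.

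The tectonics, TCTN1 to TCTN3, are related proteins of the zone's outer ring. TCTN3 read 6.45, 6.46 and 6.39 on the Ctrl arrays and 5.47, 5.43 and 5.44 on the CSF3 arrays, 1.98-fold lower with the narrowest standard error of all 51 genes (-0.99 ± 0.05). TCTN1 read from 5.57 to 5.60, then from 4.92 to 5.06 (-0.60 ± 0.06). Its brightest probe set is named _s_at, and the other 2 gave -0.05 and -1.23. TCTN2 was dim and overlapping, 2.20, 1.77 and 2.04 against 1.87, 2.18 and 1.93 (-0.01 ± 0.13). TCTN1 and TCTN3, the transition zone genes with exact facing arms, were both called lower on their brightest probe sets, as were 8 of the 13 genes of the class. Nothing is read about the arms from these 2 genes.

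MKS1, B9D1 and B9D2 are the B9-domain proteins that form a complex with one another. Only B9D1 was called, with 6.56, 6.61 and 6.59 in Ctrl and 6.03, 6.23 and 5.84 in CSF3 samples (-0.56 ± 0.10), and its 2 other probe sets gave 0.08 and 0.21 at mean levels of 6.23 and 6.20, beside 6.31 for the first. MKS1 read 5.16, 5.36 and 5.13 and then 5.13, 5.23 and 5.29, a difference of 0.00025 ± 0.08. B9D2 read 5.56, 5.63 and 5.33, then 5.42, 5.74 and 5.39 (0.01 ± 0.12). The arrays of the 2 groups overlapped in MKS1 and B9D2. After quantile normalization MKS1 was called higher (0.23).

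CEP290, which spans the gap between the microtubules and the membrane, read 5.58, 5.55 and 5.42 on the Ctrl arrays and 4.63, 4.64 and 4.66 on the CSF3 arrays (-0.87 ± 0.06). All 4 of its probe sets lay below 0, from -0.26 to -0.87. NPHP4, of the nephronophthisis module, changed by -0.30 ± 0.06, and by -0.061 without a call after quantile normalization. RPGRIP1L, the scaffold that NPHP4 binds, was called higher (0.34 ± 0.08) on dim signals from 2.16 to 2.29 and from 2.49 to 2.72. Its 3 other probe sets lay at -0.10, -0.08 and -0.03, and after quantile normalization it was not called (0.12). AHI1 (jouberin) was not called on its brightest probe set (7.09, 7.09 and 7.05 against 6.93, 7.07 and 7.12), while its 3 dimmer ones gave -0.53, -1.09 and -0.59.

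The remaining 4 genes act at the centriole or its satellites. CFAP263 (CCDC113), a satellite and axonemal protein, had the deepest drop of the 51. It read 4.60, 4.63 and 4.62 on the Ctrl arrays and 2.43, 2.36 and 2.66 on the CSF3 arrays, 4.40-fold lower (-2.14 ± 0.08). The signal on the CSF3 arrays lay near the lower quartile of those arrays, 2.40 to 2.43. Its 3 dimmer probe sets changed by -0.27, 0.19 and 0.01, so the size rests on 1 probe set. CEP41, needed for glutamylation of ciliary tubulin, read 5.89, 5.85 and 5.78, then 4.61, 4.56 and 4.68 (-1.22 ± 0.06), and its next brightest probe set gave -0.88.

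OFD1, a protein of the distal centriole and the satellites, was called lower by a narrow margin (6.07, 6.12 and 6.17 against 6.04, 5.94 and 5.88, -0.17 ± 0.06). The OFD1 call was lost without any of the Ctrl replicates, without CSF3 replicate 2 or 3, with the replicate number as a block (adjusted p = 0.0896 by limma) and after quantile normalization, where the change was 0.10. CEP164, the distal appendage protein that docks the mother centriole to the membrane, was the gene with the largest rise among the 51. It read 4.80, 4.92 and 4.88 on the Ctrl arrays and 5.27, 5.36 and 5.57 on the CSF3 arrays, 1.45-fold higher (0.53 ± 0.08). Its 3 dimmer probe sets gave 0.07, 0.29 and 0.16.

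Across classes, the median changes ran from -0.39 in the transition zone to -0.73 in the BBSome, with -0.60 in IFT-A, -0.56 in IFT-B, -0.62 in the motors and -0.69 in the centriole and satellite genes. Array by array, the median deviation of the 51 genes from their Ctrl mean was -0.53, -0.58 and -0.60 on the CSF3 arrays and between -0.04 and 0.02 on the Ctrl arrays. Genes within each class differed by more than the classes did, as the range from -2.14 to 0.53 among the 4 centriole and satellite genes shows. IFT80 and IFT20 of IFT-B changed in opposite directions on all of their probe sets. WDR35 and IFT140 of IFT-A changed by -1.99 and 0.16 on their brightest probe sets, but by 0.33 and 0.16 on gene-specific ones. Each class except IFT-A held exactly 1 gene called higher: IFT20, BBS5, KIF17, RPGRIP1L and CEP164.

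Agreement between probe sets of a gene was limited. Of the 51 genes, 12 had 1 probe set and 39 had several. Among the 39, all probe sets changed in one direction in 17 and in both directions in 22. Of the 30 genes called lower that had several, the next brightest probe set was also lower in 20 (the same was seen in 77.5% of the 3889 such genes overall). Taking the next brightest probe set in place of the brightest, the median of the 39 genes was -0.11 and 16 were called lower, beside 29.7% of the 11734 genes tested that way. In that setting the calls of IFT57, BBS7, BBS12, KIF3A, TCTN1, TMEM231 and CEP164 were lost without a change of sign. Of the 26 other probe sets of the 51 genes at or above the median level of 3.72, 14 read lower in CSF3 samples (median change -0.036), where 61.3% of all probe sets at that level did, with a median of -0.16. Below that level, 36 of the 67 other probe sets of these genes read lower (median change -0.035). There, 21% of all probe sets did, with a median of 0.23. Apart from their brightest probe sets, the cilium genes thus read lower more often than all probe sets only below that level. The shares of all probe sets include the brightest of each gene, so the comparison is not like for like. With all probe sets averaged, the calls of IFT22, IFT57, IFT81, IFT88, ARL6, KIF3B, RPGRIP1L, B9D1 and OFD1 were lost, and with gene-specific probe sets those of ARL6, KIF3A, TCTN1 and OFD1, while WDR35 turned. The averaging also brought new calls, with IFT52 (-0.38), IFT140 (-0.21) and AHI1 (-0.56) lower and BBS1 (0.17) higher. The genes whose probe sets all pointed down were TTC21B, IFT52, IFT80, TRAF3IP1, BBS4, BBS9, BBS10, BBS12, TTC8, CEP290, TMEM231, TCTN1, AHI1, KIF3A and BBS7, and those of IFT20 and CEP164 all pointed up.

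**Figure D3:**
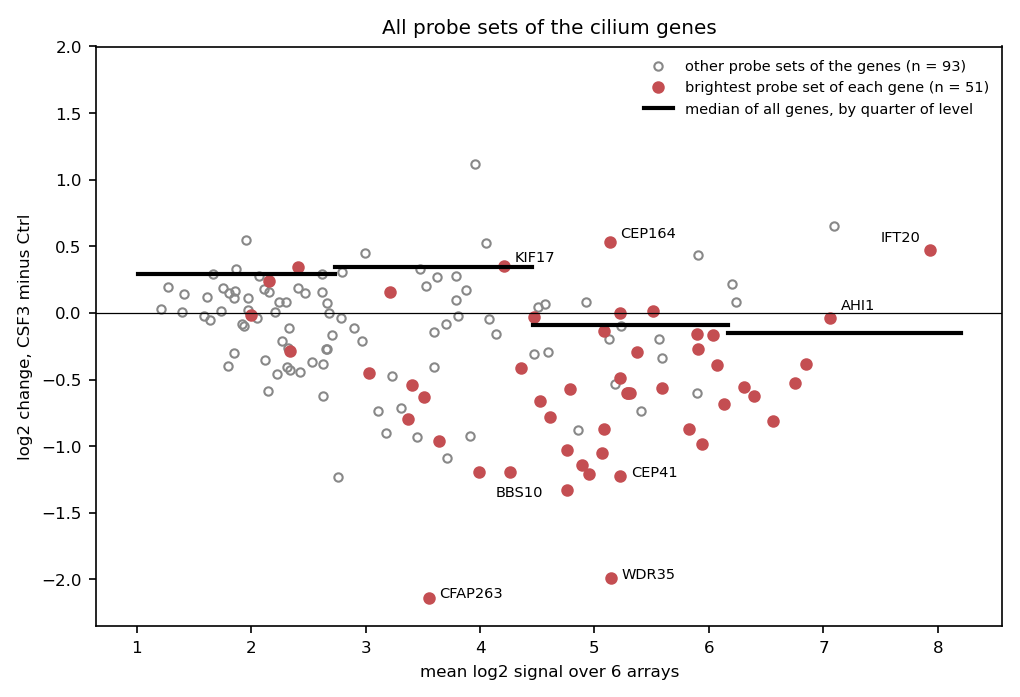
Log2 change, CSF3 minus Ctrl (vertical axis), against the mean log2 signal over 6 arrays (horizontal axis) for all 144 probe sets of the 51 genes. Filled points are the brightest probe set of each gene, open ones the 93 others, and black bars the median change of all genes in each of 4 equal bins of level (0.29, 0.35, -0.09 and -0.15). Filled points mostly lie below the bars, and open points spread around 0.

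Other genes of the pathway, in lists of 144 genes of which 130 were measured, were split otherwise. By limma, 48 of the 130 rose and 33 fell at an adjusted p under 0.05, where 45.4% and 27.1% of all genes did. Their median was 0.10. Signal level differed too, with a median Ctrl level of 4.16 for these genes and 5.47 for the 51. With the dimmest 30% of genes left out, 26 of 91 rose and 31 fell, where 37.6% and 38.5% of all genes did. How far level enters the contrast with the 51 genes was not tested. Further transport subunits and partners were split evenly, with 6 of 17 higher and 6 lower (median 0.03). LZTFL1, which controls BBSome entry, fell from 4.67 ± 0.12 to 3.77 ± 0.07 (SD, n = 3; -0.90 ± 0.08, limma adjusted p = 7.09e-05), with -0.36 on its next brightest probe set. RABL2A, a GTPase that starts IFT trains, fell by 1.18 ± 0.17 (limma adjusted p = 0.000707), on a probe set that may also read its near-identical copy RABL2B. IFT25, the partner of IFT27, rose by 0.41 ± 0.05 (limma adjusted p = 0.000394), opposite to IFT27, and the dim IFT70A rose by 0.31 ± 0.12 (limma adjusted p = 0.0445). IFT70A was not called after quantile normalization (0.089), nor with Ctrl replicate 1 or 3 or CSF3 replicate 2 or 3 left out (0.19 to 0.34).

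Among other transition zone and basal body genes, 14 of 33 fell and 6 rose (median -0.10). CSPP1, a microtubule-binding ciliopathy protein, fell by 1.26 ± 0.10, with -0.25 on its next brightest probe set. PCM1, the scaffold of centriolar satellites, fell by 0.96 ± 0.07, though its next brightest probe set gave 0.064. NEK8, a kinase of the inversin compartment, and FUZ, a planar polarity effector, rose by 0.54 ± 0.08 and 0.49 ± 0.11, and FUZ gave 0.21 on its next brightest probe set. Of 25 genes of the ciliary membrane and Hedgehog signalling, the pathway that runs through the cilium, 10 rose and 6 fell (median 0.07). The somatostatin receptor gene SSTR3 and the coreceptor gene BOC rose by 0.68 ± 0.12 and 0.56 ± 0.06, while the Hedgehog receptor gene PTCH1 and GPR161, a receptor that restrains the pathway, fell by 0.78 ± 0.12 and 0.61 ± 0.11.

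Regulators of cilium assembly and disassembly had 7 of 22 higher and 4 lower (median 0.11). CILK1, a kinase of the ciliary tip, rose by 0.72 ± 0.16, but its next brightest probe set gave -1.07. NEDD9, a scaffold in cilium resorption, rose by 0.39 ± 0.09 and was not called after quantile normalization (0.17). KIF2A, which depolymerises microtubules, fell by 0.54 ± 0.07. TCHP (trichoplein) fell by 0.42 ± 0.09 on its brightest probe set and changed by 0.096 when all 4 were averaged. Of 10 ciliary transcription factors, 6 rose and 1 fell (median 0.26): RFX6 and RFX1 rose by 0.51 ± 0.08 and 0.34 ± 0.08, and RFX7 fell 2.74-fold, from 4.93 ± 0.12 to 3.48 ± 0.11 (SD, n = 3; limma adjusted p = 1.88e-05), with a change of -0.76 on its next brightest probe set. Of 23 motile cilium genes, 13 rose and 2 fell (median 0.30). The median Ctrl levels of the transcription factors and the motile cilium genes were 3.45 and 2.48. In the bins of level that hold these values, 63.7% and 63.5% of all genes were called higher, with medians of 0.35 and 0.29. Neither list thus stood out from genes of its level. The outer dynein arm genes DNAI1 and DNAI2 rose by 0.89 ± 0.10 and 0.78 ± 0.15. On their next brightest probe sets DNAI1 gave 0.32 and was not called (limma adjusted p = 0.113), and DNAI2 gave 0.30. SPAG16 fell by 0.71 ± 0.10 on a probe set named _s_at while its specific one gave 0.20, and CCNO fell by 0.24 ± 0.06, with a change of 0.020 after quantile normalization. The highest limma adjusted p of any gene named as rising or falling in these lists was 0.0445.

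**Figure D4:**
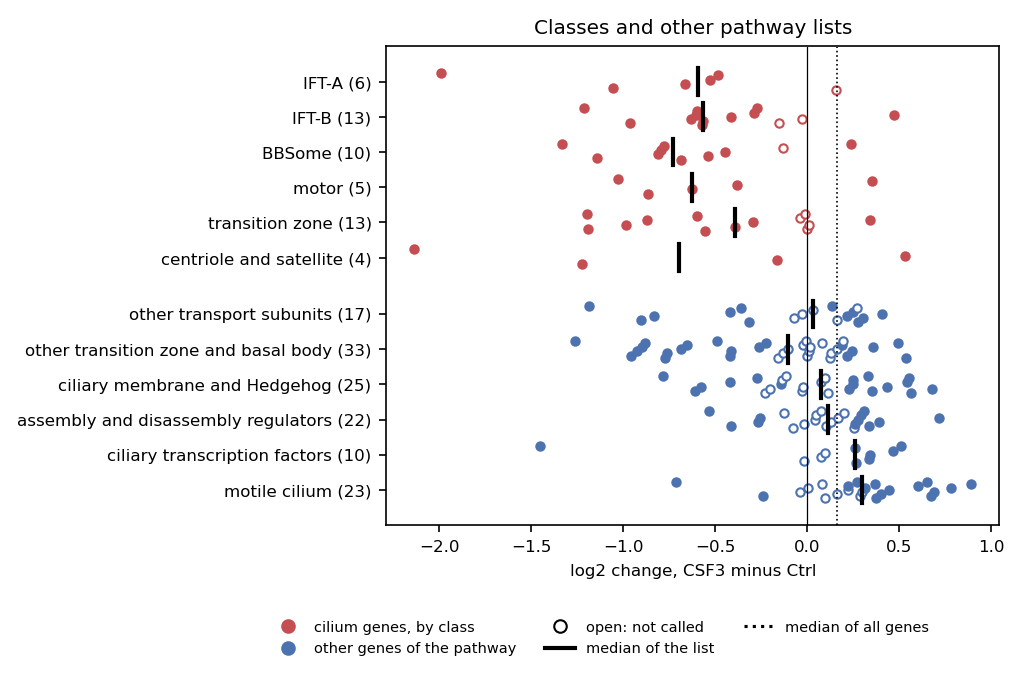
Log2 change, CSF3 minus Ctrl (horizontal axis), of each measured gene in the 6 classes (red) and the 6 other lists (blue), with the number of genes in brackets. Filled points are called, bars are list medians and the dotted line is the median of all genes, 0.16. The bars of the classes lie between -0.73 and -0.39 and those of the other lists between -0.10 and 0.30.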

How the data were processed

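The authors deposited 1 table of log2 values for 49395 probe sets on 6 arrays, judged by their range of 0.81 to 12.7. The log base, background correction and scaling were not given in the sources used here. Another base would change the folds and not the tests. Probe sets of 1 gene (44988) were named from the platform annotation and checked by Entrez identifier against RefSeq of GRCh38.p14. Those of several genes (1832) or none (2473) and 102 controls were left out. The probe set with the highest mean stood for its gene. CSF3 minus Ctrl was fitted to 18132 genes by limma 3.58.1 (lmFit, then eBayes; R 4.3.3), with no filter and no covariates, and adjusted by Benjamini and Hochberg's method at 0.05. The fit was tested on simulated data. The number of arrays limits the precision.

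The members and lists were chosen with earlier results of these data known. The rule names all 51 members, CSF3 and, of each other list, up to 2 called genes with the largest rise and 2 with the largest fall whose groups do not overlap. Alternatives were quantile normalization, array medians subtracted, the dimmest 30% left out, other choices of probe set, array weights, eBayes with trend and robust options, a block for the replicate number, a change of at least 1 and each array left out.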

Additional observations from a re-analysis of the deposited data

How the results depend on the processing

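The count of members called lower was within 1.5 times 38 in every alternative except the next brightest probe set (16 of 39) and a change of at least 1 (10). The count called higher, 5, became 3 of 47 with the dimmest 30% left out and 0 with a change of at least 1. Other cilium genes called higher, 48, became 26 of 91, 30 of 88 and 0 with the dimmest left out, the next brightest probe set and a change of at least 1, and those called lower, 33, became 3 with the last. The median of the members was -0.38 after quantile normalization, -0.31 with all probe sets averaged, -0.49 with specific probe sets and -0.11 with the next brightest. For IFT-A, IFT-B, BBSome, motors, transition zone and centriole genes, quantile normalization gave -0.41, -0.37, -0.61, -0.38, -0.23, -0.46, and the next brightest probe set 0.026, -0.00033, -0.41, -0.10, -0.13, -0.12, so IFT-A turned. All probe sets averaged gave -0.24, -0.50, -0.17, -0.30, -0.23 from IFT-B on. Specific probe sets gave -0.38 for motors and -0.30 for the transition zone, which was -0.56 with the dimmest left out. With 1 array left out, the medians were -0.59 to -0.49 for IFT-B, -0.75 to -0.67 for the BBSome and -0.46 to -0.34 for the transition zone.

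Changes turned sign after quantile normalization in IFT52 (0.11), IFT172 (0.10), BBS1 (0.073), AHI1 (0.18), OFD1 (0.096) and CCNO (0.020), and with array medians subtracted in MKS1 (-0.0046). With all probe sets averaged they turned in IFT140 (-0.21), IFT172 (0.10), BBS1 (0.17), OFD1 (0.040) and TCHP (0.096), and with specific ones in WDR35 (0.33) and SPAG16 (0.20). With the next brightest they turned in WDR19 (0.29), WDR35 (0.33), IFT122 (0.026), IFT140 (-0.39), IFT81 (0.33), IFT88 (0.0096), IFT172 (0.18), CLUAP1 (0.097), BBS1 (0.53), ARL6 (0.16), DYNC2LI1 (0.28), RPGRIP1L (-0.10), B9D1 (0.080), OFD1 (0.042), PCM1 (0.064), CILK1 (-1.07), TCHP (0.33), SPAG16 (0.20) and CCNO (0.016). Leaving out 1 array moved TCTN2 over -0.13 to 0.085, MKS1 over -0.043 to 0.073, IFT172 over -0.089 to 0.0083, B9D2 over -0.10 to 0.074 and AHI1 over -0.075 to 0.019, across 0. The cause was not tested. The replicate number as a block left 37 members lower and 5 higher, with OFD1 lost (change -0.17), and no other call of a member. Deviations of arrays with the same number correlated at 0.03 to 0.04, every array best with its own number. Those of arrays with different numbers correlated at -0.038 to 0.0085. The labels do not say whether a number marks a shared culture or day, and correlations this small cannot decide it. Dim signals limit BBS5, TCTN2, IFT88 and RPGRIP1L among the members, and IFT70A, NEDD9, RFX6 and SPAG16 among the other genes named.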
